A study of Mus musculus with 11 samples.

Results

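Langerhans cells (LCs) were absent from the LC-/- mice, and the question here was whether their absence changed gene expression to a different degree, or in a different direction, in the 2 cell populations that were sorted from the epidermis. All 11 libraries of the study were used. WT keratinocytes (KCs, n = 3) and LC-/- KCs (n = 3) were set beside WT dendritic epidermal T cells (DETCs, n = 3) and LC-/- DETCs (n = 2). For each of 14419 genes the LC-/- minus WT change in KCs was subtracted from the same change in DETCs, on log2 of the normalized count plus 1. This value is called the difference below, and it is positive where a gene moved more upward in DETCs. Genes whose difference passed an adjusted p of 0.05 (limma over all libraries, two-sided, Benjamini-Hochberg over all genes tested) numbered 115. They are described beside 298 genes that were called in the same direction in both populations.

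The mice were female and 8 weeks old. LC-/- mice carry huLangerin-DTA, in which human langerin regulatory sequence drives the A subunit of diphtheria toxin, so that LCs are missing from birth and the neighbouring cells have developed without them. WT mice were their littermates. KCs were sorted as live MHC-II-, CD45-, langerin-, c-kit- cells and DETCs as live MHC-II-, CD45+, langerin-, c-kit- cells of flank epidermis, and polyA RNA was sequenced. The DETC gate names no T cell receptor. The libraries are written W1 to W3 for WT and L1 to L3 for LC-/-, in the order of the numbers in their labels, and L1 has no DETC library. Whether equal numbers mean the same mouse in both populations is not stated in the labels.

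KCs form the layers of the epidermis and its barrier. LCs are resident antigen-presenting cells that reach between them, and DETCs are gamma delta T cells with a nearly uniform receptor that stay in the mouse epidermis for life and watch over KCs. KCs supply cytokines on which both immune cells depend. FOXO1, one of the genes below, is a transcription factor that is held in the cytoplasm when growth factor and AKT signalling is active and that in T cells favours quiescence and survival. GLUL makes glutamine from glutamate and ammonia, and TNF is an inflammatory cytokine that both KCs and DETCs can release.

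Each library held 13491075 to 19750440 reads on genes. Reads were recovered from the deposited values, and a count of 0 allowed up to 3 reads, which covers counting error only. Both populations carried their defining transcripts. The summed normalized count of 24 keratinocyte markers was 779484 to 834181 in KCs, and that of 22 DETC markers was 307534 to 339044 in DETCs and 1716 to 3035 in KCs. DETC libraries also held 133035 to 224051 counts of the keratinocyte markers, and all 24 were detected in every group. The median ratio of a DETC library to the mean of the KCs of its genotype over these 24 genes is called the keratinocyte share. WT DETC libraries had shares of 15.1%, 15.3% and 18.1%, and LC-/- DETC libraries 24.97% and 15.7%. The higher LC-/- value belonged to library L2. Cd207, which encodes langerin, had 6, 29 and 18 reads in WT KCs and 0 in all 3 LC-/- KCs. Langerhans cell markers summed to 36111 to 38579 in WT KCs and 50168 to 53484 in LC-/- KCs, 8971 to 10961 in WT DETCs and 10043 to 15442 in LC-/- DETCs. That sum includes Epcam, Cd24a and Il1r2, which had 5799 to 9970, 1871 to 2617 and 919.9 to 1322 counts in KCs. These genes made up only part of it, and why the sum was higher in LC-/- KCs was not tested. Of the 18 markers, Cd207, Ltc4s, Itgax and Ccr6 were at 0 in every LC-/- KC library, and Ccr6 was at 0 in every WT KC library as well. In bulk samples, fewer cells of a type and less RNA per cell cannot be told apart.

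In the main fit, more of the differing genes moved upward in DETCs than in KCs. This balance depended on the processing. It was 70 against 48 genes with quantile scaling and 141 against 186 with the keratinocyte share, defined above, subtracted from the DETC values. Of all genes tested, 0.798% differed in the main fit, 0.617% (89 genes) more upward in DETCs and 0.180% (26 genes) more upward in KCs. They fell into 3 main kinds by where the change was called. In the first, 64 genes were called higher in LC-/- DETCs and were not called in KCs, with a median log2 change of 0.83 in DETCs and -0.05 in KCs. In the second, 18 genes were called lower in LC-/- KCs and not called in DETCs, with medians of -0.81 and 0.29. In the third, 24 genes were called higher in LC-/- KCs and not called in DETCs, with medians of 0.70 and -0.11. Only 1 gene, Cspg4, differed through a decrease in DETCs without a call in KCs. A further 7 genes were called in both populations with opposite directions, and Ramp3, named after its values were seen, was called in neither. At an unadjusted p under 0.05, 1634 genes differed. The differences of the 115 ran from 0.53 to 2.90 in size. The threshold fell between 4933431E20Rik, the last gene inside (0.94), and Slfn10-ps, the first gene outside (-1.38, adjusted p = 0.0548).

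**Figure D1:**
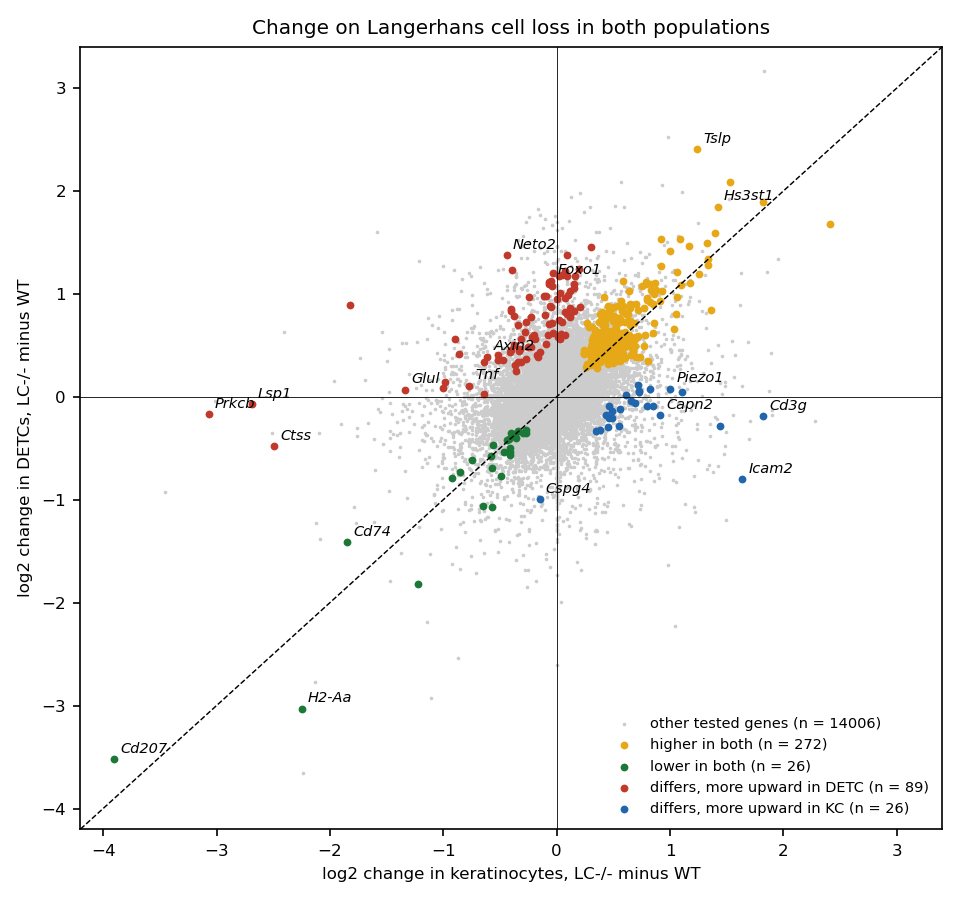
Each point is 1 of 14419 tested genes, with its log2 change (LC-/- minus WT) in KCs on the x axis and in DETCs on the y axis; the dashed line marks equal change. Genes that differed and moved more upward in DETCs (89, red) lie above the line and those more upward in KCs (26, blue) below it, while the 272 genes higher in both (yellow) and the 26 lower in both (green) lie along it.

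Foxo1 was among the genes that rose in DETCs while KCs gave nearly the same value in both genotypes. WT KCs held normalized counts of 1741, 1842 and 1884, and LC-/- KCs held 1746, 1747 and 1793. WT DETCs held 4971, 5668 and 5766 and LC-/- DETCs 13465 and 10616, so that the genotypes were well apart in DETCs and overlapped in KCs. Over all tested genes, the genotypes did not overlap for 37.9% in DETCs and 31.5% in KCs. The Foxo1 change was 2.19-fold in DETCs and 0.967-fold in KCs, and the 95% interval of the log2 difference of 1.18 was 0.88 to 1.48. Foxo1 stayed called whichever of the 11 libraries was omitted (adjusted p = 0.00475 to 0.0179, limma). The keratinocyte share of the KC value came to 4.41% of the DETC value, averaged over the DETC libraries. Foxo4, a second FOXO factor, also moved apart, with 827, 987 and 927 in WT DETCs and 1285 and 1260 in LC-/- DETCs, against 772, 667 and 694 in WT KCs and 579.5, 613 and 593 in LC-/- KCs (difference 0.74, standard error 0.13, adjusted p = 0.0217 by limma).

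A list of 36 FOXO factors and genes known to be controlled by FOXO1 was examined next. Foxo1 and Foxo4 were the members that passed by limma, 5.56% of the list against 0.798% of all genes. Foxo1 was itself chosen with earlier results of these data known. DESeq2 called 5 members, against 310 of all 14419 genes. The median difference of the list was 0.11, against 0.05 over all genes, and 25 of the 36 differences were above 0, against 56.6% of all genes. Txnip, an inhibitor of thioredoxin, had a difference of 0.91 (adjusted p = 0.160), Fbxo32, a ubiquitin ligase subunit, had 0.66 (0.0907) and the receptor gene Il7r had -1.26 (0.441). Foxo3 had a difference of 0.23 (0.616).

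The stretch of 250 bases before the RefSeq start of Foxo1 is shown together with those of Glul, Tnf and Capn2, because these 4 genes stand for the 3 main kinds of difference: a rise in DETCs, a fall in KCs and a rise in KCs. Sequences are from RefSeq on GRCm38.p6, written 5′ to 3′ on the strand of the gene. Capitals mark CCAAT boxes (CCAAT or its reverse complement), the TATA box (TATAAA) and the AP-1 motif (TGANTCA). Foxo1 lies on the plus strand (chr3:52268087-52268336), Glul on the plus strand (chr1:153899679-153899928), Tnf on the minus strand (chr17:35202008-35202257) and Capn2 on the minus strand (chr1:182517611-182517860).
Foxo1: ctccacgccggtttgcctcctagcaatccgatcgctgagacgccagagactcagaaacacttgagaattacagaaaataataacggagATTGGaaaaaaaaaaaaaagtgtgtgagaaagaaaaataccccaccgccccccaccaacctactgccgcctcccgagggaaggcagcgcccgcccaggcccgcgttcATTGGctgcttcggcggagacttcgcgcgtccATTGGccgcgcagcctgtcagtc
Glul: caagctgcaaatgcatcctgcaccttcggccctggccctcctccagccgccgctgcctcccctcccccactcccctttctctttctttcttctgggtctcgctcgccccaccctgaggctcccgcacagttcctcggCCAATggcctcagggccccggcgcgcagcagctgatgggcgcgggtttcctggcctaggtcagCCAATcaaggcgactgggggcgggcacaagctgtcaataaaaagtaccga
Tnf: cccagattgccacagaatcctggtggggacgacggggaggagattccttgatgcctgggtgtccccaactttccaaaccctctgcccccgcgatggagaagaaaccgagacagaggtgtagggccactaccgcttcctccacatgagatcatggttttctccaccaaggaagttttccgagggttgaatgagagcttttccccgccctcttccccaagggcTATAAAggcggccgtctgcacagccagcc
Capn2: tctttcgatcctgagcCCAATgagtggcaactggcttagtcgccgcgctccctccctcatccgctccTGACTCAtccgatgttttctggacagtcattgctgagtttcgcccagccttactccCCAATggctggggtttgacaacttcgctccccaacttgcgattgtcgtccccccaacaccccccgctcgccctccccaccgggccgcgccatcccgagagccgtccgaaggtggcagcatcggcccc
Tnf held the TATA box 29 bases before its start, Foxo1 held 3 CCAAT boxes, Glul held 2, and Capn2 held 2 CCAAT boxes and an AP-1 motif 183 bases before its start. The FOXO motif (TGTTTAC, either strand) was in none of these 4 stretches. It was found for 2 of the 75 genes more upward in DETCs that had a promoter in the table (2.67%), against 2.77% of 10291 tested genes with one.

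Several other genes of the first kind rose about as much as Foxo1 in DETCs. Lats2, a kinase of the Hippo pathway that restrains YAP1, had 1568, 1631 and 1593 counts in WT DETCs and 3184 and 3085 in LC-/- DETCs. Its KC counts overlapped, with 228, 219 and 284 in WT KCs and 200.5, 186 and 229 in LC-/- KCs. The difference was 1.21 (standard error 0.16, adjusted p = 0.00652). Vgll4, which competes with YAP1 for its DNA-binding partners, rose in DETCs with a difference of 0.59. Sphk2, a kinase that makes sphingosine 1-phosphate, had the smallest adjusted p of all genes (0.00257, shared with 3 others). It went from 2180, 2316 and 2126 to 4983 and 5181 in DETCs, while WT KCs held 618, 608 and 606 and LC-/- KCs 568, 680.0 and 548. Lats2 and Sphk2 were both called in all 11 fits that left out 1 library.

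Neto2, an auxiliary subunit of kainate receptors, and Zkscan5, a zinc finger gene, were of the same kind and ranked among the 10 largest differences. Neto2 was at 213, 259.9 and 279 in WT and 698 and 607 in LC-/- DETCs, with 19.96 to 39.9 in all KCs. Zkscan5 was at 139, 127 and 155 in WT and 400.0 and 332 in LC-/- DETCs, with 75.8 to 101 in all KCs. DETC genotypes did not overlap in 37.9% of all tested genes. In both Neto2 and Zkscan5 the KC genotypes overlapped and the DETC genotypes did not. Their calls depended more on single libraries: Neto2 kept its call in 5 and Zkscan5 in 4 of the 11 fits that left out 1 library, and both lost it without LC-/- DETC library L2 (adjusted p up to 0.119 and 0.132 over these fits). Rrm1, the large subunit of ribonucleotide reductase, was at 12173, 18306 and 15869 in WT and 29488 and 31994 in LC-/- DETCs, and at 809 to 951 in all KCs (difference 0.98, adjusted p = 0.0319). It kept its call in 3 of the 11 fits. It was the only one of 31 tested cell cycle and replication genes to differ, and the median difference of that list was -0.01 (0.22 without library L2 and -0.21 without L3).

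A few further members are named here after their values were seen. Efnb2, which encodes ephrin-B2, was at 1383, 1239 and 1570 in WT and 3088 and 2795 in LC-/- DETCs, which brought it to the level of KCs (2877 to 3220 in all 6 libraries). Usp2, a deubiquitinase, was at 457, 465 and 521 in WT and 1470 and 1192 in LC-/- DETCs, and at 603 to 692 in WT and 749 to 809 in LC-/- KCs. The LC-/- KCs thus also lay above WT KCs in Usp2, without a call (adjusted p = 0.0777), and the difference was 1.17. Jmy, a cofactor of p53 that nucleates actin, was at 9575, 10271 and 10394 in WT and 24190 and 21304 in LC-/- DETCs and at 1027 to 1225 in all KCs. Nfe2l2, the master regulator of the antioxidant response, had a difference of 0.69 and Polr2a, the large subunit of RNA polymerase II, had 0.68.

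**Figure D2:**
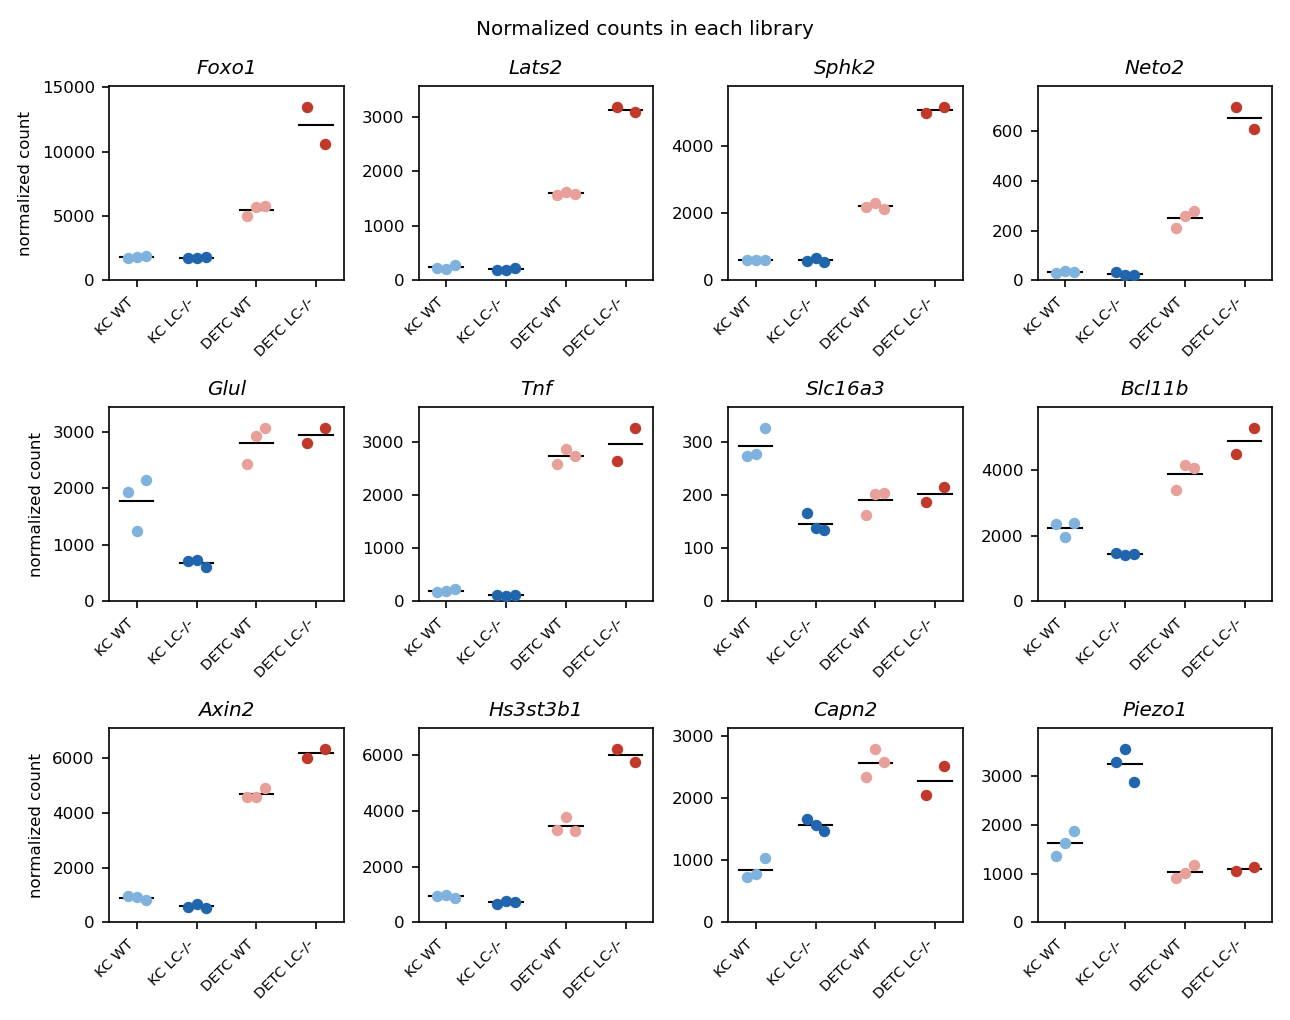
Normalized counts of 12 genes in each of the 11 libraries, as points, with the mean of each group as a line; each y axis is linear and starts at 0. In Foxo1, Lats2, Sphk2 and Neto2 the 2 LC-/- DETC libraries stand above all WT DETC libraries, in Glul, Tnf, Slc16a3 and Bcl11b the 3 LC-/- KC libraries stand below all WT KC libraries, and in Axin2 and Hs3st3b1 both shifts are present. Genotypes did not overlap in DETCs for 37.9% and in KCs for 31.5% of all tested genes.

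Glul showed the second kind of difference. Its counts were 1935, 1254 and 2152 in WT KCs and 722, 737 and 604 in LC-/- KCs, a 0.395-fold change. WT DETCs held 2438, 2930 and 3074 and LC-/- DETCs 2803 and 3074, a 1.05-fold change, and the genotypes overlapped. The difference was 1.41 (95% interval 0.86 to 1.96, adjusted p = 0.0256). Among 33 tested genes of glutamine, glutamate and amino acid supply it was the only one to differ, and the median difference of the list was 0.07. Slc1a5, a glutamine transporter, had a difference of -0.41 (adjusted p = 0.600). The call of Glul was kept in 2 of the 11 fits that left out 1 library, and the highest adjusted p over them was 0.0781.

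Tnf fell in KCs, from 179, 193 and 237 in WT to 122, 105 and 127 in LC-/- mice. WT DETCs held 2579, 2875 and 2727 and LC-/- DETCs 2638 and 3264. Tnf passed the threshold of the difference narrowly (0.88, 95% interval 0.48 to 1.27, adjusted p = 0.0492), and its call was lost whichever library was left out (adjusted p = 0.0593 to 0.123). Of 30 tested genes of the TNF superfamily it alone differed, and the median difference of the list was -0.15. Its receptor Tnfrsf1a had a difference of 0.33 (adjusted p = 0.335).

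Other genes of the second kind were of mixed function. The KC genotypes did not overlap in 31.5% of all tested genes. Arrdc3, an arrestin-like gene that is repressed by glucose and insulin signals and that was named after its values were seen, fell in KCs without overlap. It was at 1711, 1632 and 1814 in WT KCs and 921, 902 and 801 in LC-/- KCs, against 2431, 2132 and 2409 in WT and 2547 and 2557 in LC-/- DETCs, and the call (difference 1.11, adjusted p = 0.00257) held in all 11 fits that left out 1 library. Bcl11b, a zinc finger factor needed for T cell identity that is also expressed in KCs, was at 2361, 1964 and 2396 in WT and 1481, 1401 and 1428 in LC-/- KCs. WT DETCs held 3394, 4145 and 4049 and LC-/- DETCs 4470 and 5273, without a call there (difference 0.97, adjusted p = 0.0142). Slc16a3, the lactate exporter, was at 273, 277 and 326 in WT and 166, 138 and 133 in LC-/- KCs, with 163 to 214 in all DETCs. Herpud1, a component of endoplasmic reticulum-associated degradation, had a difference of 0.88 and Klhl42, an adaptor of a ubiquitin ligase, had 1.27. Hist3h2a, a histone gene, was at 44.1, 41.7 and 46.7 in WT and 31.9, 18.3 and 21 in LC-/- KCs (difference 1.47). Histone transcripts mostly lack a poly-A tail, and the libraries were made from polyA RNA. Of these genes, Slc16a3, Klhl42 and Hist3h2a each kept the call in 1 of the 11 fits.

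In 7 genes both populations were called, in opposite directions. Axin2, a negative regulator and a target of Wnt signalling, was at 969, 916 and 836 in WT and 559.7, 689 and 538 in LC-/- KCs. WT DETCs held 4595, 4594 and 4931 and LC-/- DETCs 6027 and 6344. The log2 changes were -0.61 and 0.39. Hs3st3b1, which modifies heparan sulphate, fell in KCs from 955, 987 and 882 to 662, 762 and 745 and rose in DETCs from 3326, 3786 and 3296 to 6238 and 5778 (difference 1.17, standard error 0.13, adjusted p = 0.00257). Arl4c, a small GTPase of the ARF family, was at 994, 973 and 957 in WT and 768, 701 and 771 in LC-/- KCs, and at 23562, 27391 and 25309 in WT and 34914 and 36923 in LC-/- DETCs. Rap2a, a small GTPase of the RAS family, changed by -0.34 in KCs and 0.70 in DETCs. Plpp3, a lipid phosphatase, changed by -0.40 and 0.46, and Pja1, a ubiquitin ligase, by -0.37 and 0.31. Ptpn11, the phosphatase SHP2, was the single gene of the opposite pattern. It rose in KCs from 2241, 2193 and 2298 to 2954, 2788 and 2851 and fell in DETCs from 5652, 4984 and 5836 to 4446 and 4278 (difference -0.68, standard error 0.11, adjusted p = 0.0146). Plpp3 and Pja1 lost the call of the difference without LC-/- DETC library L2, and Ptpn11 lost it without that library, LC-/- KC library L1 or WT KC library W2.

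Among the 26 genes that moved more upward in KCs, a rise in KCs with near-equal DETC values was the common pattern. Capn2, the catalytic subunit of the protease m-calpain, was at 728, 777 and 1031 in WT and 1671, 1578 and 1481 in LC-/- KCs. DETCs overlapped, with 2337, 2797 and 2580 in WT DETCs and 2046 and 2518 in LC-/- DETCs (difference -1.09, standard error 0.19, adjusted p = 0.0238). Capns1, the regulatory subunit of the same protease, which was named after its values were seen, rose in KCs from 1199, 1267 and 1369 to 1761, 1764 and 1683 and also differed (-0.62, adjusted p = 0.0293). Piezo1, a stretch-activated channel, was at 1369, 1635 and 1879 in WT and 3292, 3553 and 2870 in LC-/- KCs, a 2.00-fold change, and at 919.9 to 1177 in all DETCs. The keratinocyte share of its KC value came to 39.7% of its DETC value, averaged over the DETC libraries. Rrad, a small GTPase that inhibits calcium channels, went from 70.7, 74.2 and 87.3 to 141, 166 and 201 in KCs and stayed within 1353 to 1783 in DETCs. Rab11fip1, an effector in vesicle recycling, was at 889 to 989 in WT and 1622 to 1770 in LC-/- KCs.

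Ubash3b, a phosphatase that dampens receptor signalling, rose in KCs from 454, 510.1 and 594 to 929.8, 878 and 898, while WT DETCs held 1847 to 2204 and LC-/- DETCs 1802 to 1907 (difference -0.89, adjusted p = 0.0201). Gpd2, the mitochondrial glycerol 3-phosphate dehydrogenase, rose in KCs with a difference of -0.83, and Atf6, a sensor of unfolded proteins, with one of -0.56. Cspg4, the proteoglycan NG2, was unlike the rest. Its counts of 767, 606 and 799 in WT DETCs fell to 342 and 382 in LC-/- DETCs, while LC-/- KCs (718 to 766) lay a little below WT KCs (784 to 888) without a call. In this direction only Mob3a and Smox, named after their values were seen, were called in all 11 fits that left out 1 library. Capn2 kept its call in 5, Ubash3b in 7, Gpd2 in 4, Rrad, Piezo1 and Cspg4 in 2 each, and Rab11fip1 and Atf6 in 1 each.

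**Figure D3:**
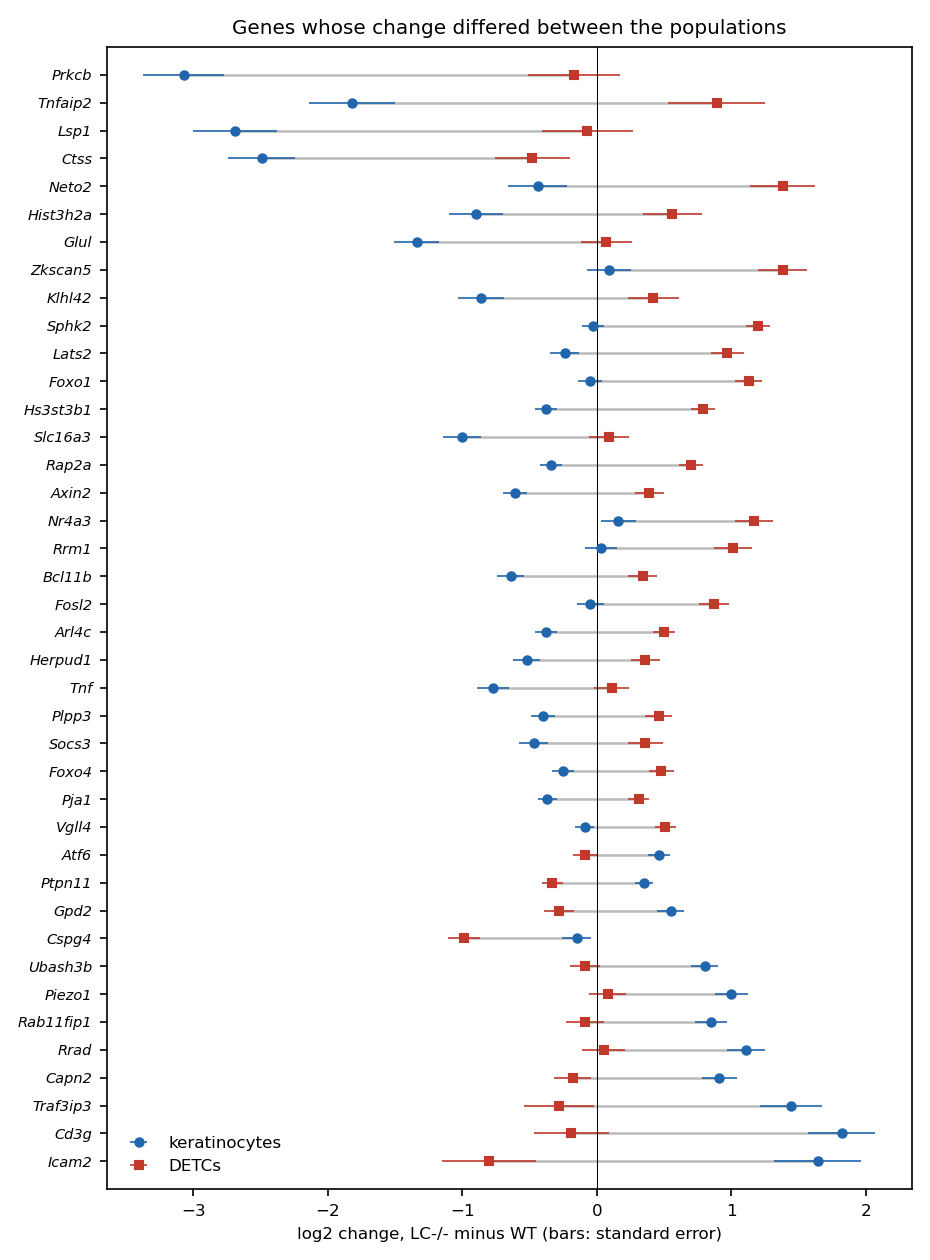
Log2 change (LC-/- minus WT, x axis) in KCs (blue circles) and DETCs (red squares) with standard errors, for the differing genes reported by name under the naming rule, ordered by the difference. From Prkcb (2.90) to Vgll4 (0.59) the DETC value lies to the right of the KC value, and from Atf6 (-0.56) to Icam2 (-2.44) to the left.

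The largest called differences came from genes with only a few reads in KCs. Prkcb, a protein kinase C of leukocytes, had 12, 7 and 13 reads in WT KCs and 0, 0 and 1 in LC-/- KCs. Lsp1, a leukocyte cytoskeletal gene, had 8, 5 and 11 reads and then 0, 1 and 0, and Ctss, the cathepsin that processes the invariant chain in antigen-presenting cells, had 4, 6 and 5 reads and then 0 in all 3. Tnfaip2 had 8, 16 and 13 reads in WT and 2, 2 and 3 in LC-/- KCs. DETCs held many more reads of Prkcb (1011 to 1622) and Lsp1 (1880 to 3509), and none of the 4 was called there. The reads of Cd207 in the same KC libraries ran from 6 to 29 in WT and were 0 in LC-/- mice. In the other direction, Icam2 had 0 reads in every WT KC library and 2 in each LC-/- one, Traf3ip3 had 0 in WT and 2, 1 and 2 in LC-/- KCs, and Cd3g, a subunit of the T cell receptor complex, had 1 read in each WT and 9, 6 and 3 in LC-/- KCs. DETCs held 23290 to 29141 counts of Cd3g. For these genes the size of the difference depended on the 1 that was added before the log was taken. With 8 added, only Tnfaip2 of the 7 was still called (adjusted p = 0.0455). The summed DETC markers were 1716 to 2323 in WT and 2289 to 3035 in LC-/- KCs, with Tcrg-V5, Tcrg-C1 and Gzmb at 0 in WT and Gzmb, Tyrobp and Fcer1g at 0 in LC-/- KCs. The part of LC or DETC transcripts in these KC values was not tested.

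Beyond single genes, the lists of pathway genes were compared by their counts and medians. The list of 27 immediate early and stress response genes had all 27 differences above 0, against 56.6% of all tested genes, with a median of 0.31 against 0.05. Nr4a3, Fosl2 and Socs3 differed. Nr4a3, an orphan nuclear receptor, was at 47829, 60083 and 62018 in WT and 113575 and 140919 in LC-/- DETCs, with 3745 to 4864 in all KCs. Fosl2, a subunit of AP-1, was at 80394, 84691 and 79552 in WT and 142781 and 154870 in LC-/- DETCs, with 9115 to 10273 in all KCs. Socs3, an inhibitor of cytokine signalling, differed mainly through KCs, with 9871, 10435 and 9202 in WT KCs and 6296, 8614 and 6522 in LC-/- KCs. Jun, Fos and Egr1 had differences of 0.31, 0.38 and 0.23 and did not pass. Another 2 members, Egr3 and Nr4a2, were called higher in both populations. With the keratinocyte share subtracted from the DETC values, 20 of the 27 differences were above 0, and over the other alternatives 23 to 27 were. Without LC-/- DETC library L2, without L3, without LC-/- KC library L1 and without WT KC libraries W2 or W3, none of the 27 was called.

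**Figure D4:**
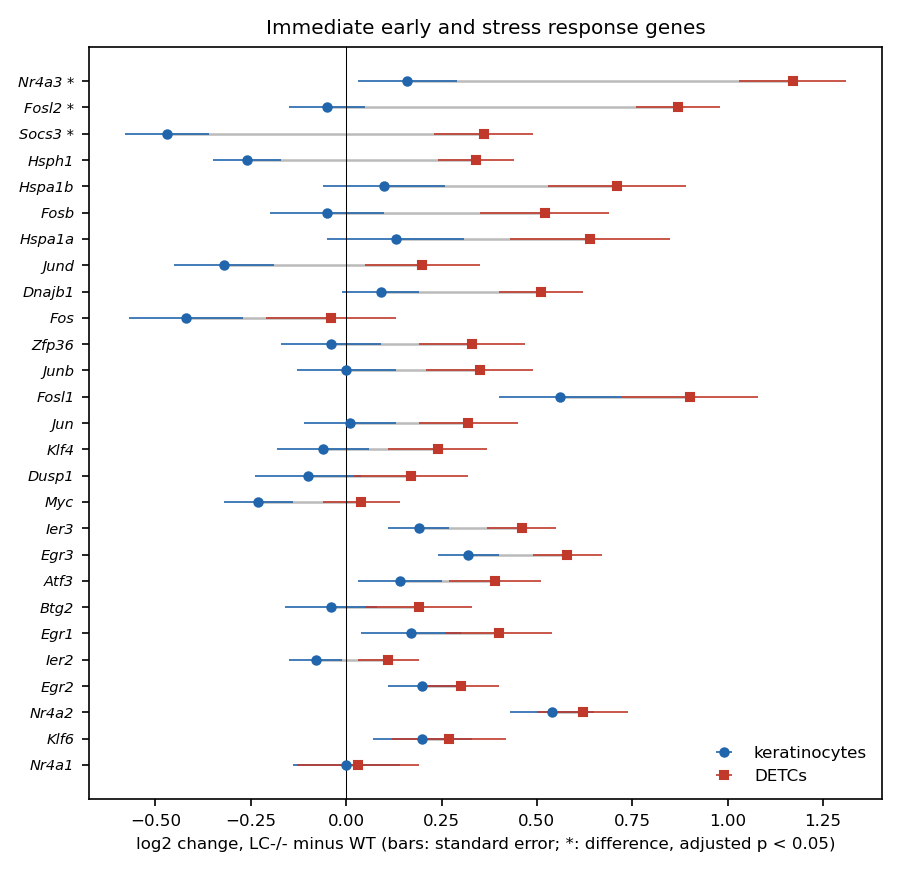
Log2 change (LC-/- minus WT, x axis) of 27 immediate early and stress response genes in KCs (blue circles) and DETCs (red squares) with standard errors; stars mark an adjusted p of the difference under 0.05. The DETC value lies to the right of the KC value in all 27, by 0.03 for Nr4a1 up to 1.0 for Nr4a3.

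Other lists moved less, or in the other direction, and several medians rested on 1 of the 2 LC-/- DETC libraries. Of 24 tested Hippo pathway genes, Lats2 and Vgll4 differed (8.33%, against 0.798% of all genes), 19 differences were above 0 and the median was 0.21. That median was 0.10 without library L2, 0.46 without L3 and 0.07 with the keratinocyte share subtracted, and 14 of the 24 were above 0 in the first and last of these. Of 23 glycolysis genes, Slc16a3 differed by limma and 6 genes did by DESeq2, which called 310 of all 14419 genes. Of the 23 differences, 19 were above 0 and the median was 0.29. The KC median of glycolysis was -0.19 and the DETC median 0.07. Hk2, which commits glucose to the cell, had a difference of 0.87 (adjusted p = 0.0760) and Tpi1 of 0.62 (0.0556). Cytosolic ribosomal proteins (78 genes, median -0.01) and respiratory chain subunits (74 genes, median -0.06) had no differing member by limma or DESeq2, with 0 and 2 genes at an unadjusted p under 0.05. At that level 1634 of all 14419 tested genes differed. Among 23 co-inhibitory and activating receptors none differed by either tool, with 5 at an unadjusted p under 0.05, and 18 differences were not above 0, with a median of -0.43. That median was -0.07 without LC-/- DETC library L2 and -0.66 without L3, where 1 receptor was called. The 24 keratinocyte markers had a median difference of 0.27, with 22 above 0, and none differed, also at an unadjusted p under 0.05. Their median was -0.12 without library L2 and 0.66 without L3.

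Several further lists held no differing member by limma. At an unadjusted p under 0.05, 1634 of all 14419 tested genes differed. Of 32 tested genes of junctions and desmosomes, 4 were called higher in both, against 1.89% of all genes, and 2 differed at an unadjusted p under 0.05. Their median difference was 0.14, and it was -0.19 without LC-/- DETC library L2, 0.52 without L3 and -0.37 with the keratinocyte share subtracted. The 26 genes of the cornified envelope behaved alike, with a median of 0.05 that became -0.57 without L2 and 0.63 without L3, and 0 genes at an unadjusted p under 0.05. Of 25 genes of MAP kinase feedback, 3 were higher in both and 3 differed at an unadjusted p under 0.05, and the median difference was 0.18, or -0.12 with the share subtracted. In TGF-beta and activin signalling (32 genes, median 0.20) and in the IL-17 programme (18 genes, median -0.21), 8 and 7 genes differed at an unadjusted p under 0.05. DESeq2 called 2 genes in each, against 310 of all 14419 genes. Of 22 DETC markers Cd3g differed by limma, and their median difference was -0.28. The median change of these markers was 0.20 in KCs, where their counts were low, and -0.08 in DETCs. Their median difference was -0.05 with 8 added before the log and 0.01 without LC-/- KC library L3. Among 26 genes of the unfolded protein response, Herpud1 moved more upward in DETCs and Atf6 in KCs, and 7 differences were above 0.

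In the main fit, genes called the same way in both populations were more numerous than the 115 differing genes. The 2 sets were called by unlike tests, so their sizes do not compare like with like. With the keratinocyte share subtracted, 73 genes were higher and 11 lower in both, while 327 differed. The counts of the main fit follow. Higher in both were 272 genes, or 1.89% of those tested, and lower in both were 26, or 0.180%. Hs3st1, a heparan sulphate modifying enzyme like Hs3st3b1, rose in KCs from 888, 709 and 766 to 2136, 1715 and 2505 and in DETCs from 119, 80.9 and 124 to 461 and 321. The difference was 0.43 (95% interval -0.19 to 1.05). Sgms2, which makes sphingomyelin at the cell surface, rose from 918, 889.5 and 1014 to 2436, 1993 and 2732 in KCs and from 186, 177 and 201 to 605 and 471 in DETCs (difference 0.17, interval -0.23 to 0.57). Slc1a1, a glutamate transporter, changed by 1.34 in each population, Oaf by 1.34 and 1.28, and the unnamed gene Gm18445 by 1.53 and 2.09. Anxa3, an annexin, was at 5.12 to 10.4 in WT and 33.6 to 56.2 in LC-/- KCs, but DETCs held only 1 read in the 3 WT libraries together and 3 reads in each LC-/- library.

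These leading genes had low values in DETCs. The keratinocyte share of the KC value came to 116% of the DETC value of Hs3st1 on average, 84.0% of that of Sgms2, 117% for Slc1a1 and 88.2% for Oaf. For Tslp, the cytokine thymic stromal lymphopoietin, it was 258%. For Hs3st1, Slc1a1 and Tslp this is more than the DETC libraries held on average, so the share overstated the KC part there. Where it exceeded the value of a library, the remainder was set to 0. With that share subtracted from the DETC values, neither Hs3st1, Sgms2, Slc1a1 nor Oaf was still called in both populations, and the smaller of their 2 changes turned negative. The source of their DETC counts was not tested. Over the whole set, the share came to at least 50% of the DETC value for 60 of the 272 genes (22.1%), against 16.1% of all tested genes and 0 of the 115 differing genes. After subtraction 73 of the 272 and 11 of the 26 were still called in both. Taking out a KC part tends to move a DETC change away from the KC change, so this step is no test of the differing genes. All 115 of them were still called after subtraction. It also added others, so that 327 genes differed, 141 of them more upward in DETCs (43.1%, against 77.4% without subtraction). Without LC-/- DETC library L2, which had the highest keratinocyte share, 57 genes were higher in both, 53 of them among the 272.

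Some genes rose in both populations with little from that share. Named after their values were seen, Myo1e, a myosin of the cell cortex, rose from 4190, 4573 and 5851 to 9490, 9126 and 10312 in KCs and from 4287, 5956 and 7228 to 16712 and 13940 in DETCs, where the share came to 13.4%. Il4ra, the shared receptor chain for IL-4 and IL-13, rose from 1709, 1623 and 1850 to 2415, 2587 and 2444 in KCs and from 5921, 6619 and 7160 to 11364 and 9991 in DETCs (share 4.42%, difference 0.18, interval -0.11 to 0.47). Myo1e and Il4ra were called in both populations in every fit that left out 1 library, which held for 23 of the 272 genes in all.

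**Figure D5:**
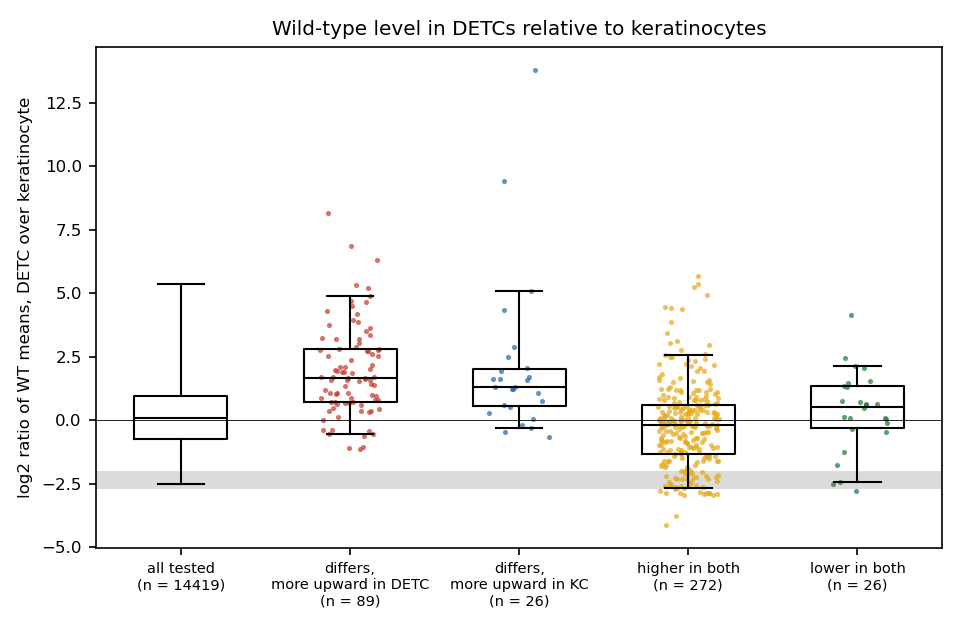
Log2 ratio of the WT mean in DETCs to that in KCs (y axis) for all tested genes and for the 4 sets; boxes show quartiles, whiskers the 5th to 95th percentile, points single genes, and the grey band the range of keratinocyte shares (15.1% to 24.97%). The differing genes sit mostly above 0, with medians of 1.67 and 1.29, and the genes higher in both reach down to the band, with a median of -0.19.

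Genes lower in both populations included transcripts of LCs and of antigen presentation. Of 15 tested Langerhans cell markers, 3 were called lower in both and 1 higher in both, against 0.180% and 1.89% of all genes. Cd207 itself fell in DETC libraries too, from 21.8, 16.5 and 46.7 counts to 0 and 4.42. H2-Aa, an MHC class II chain, fell from 53.3, 54.7 and 33.7 to 6.61, 7.12 and 14.7 in KCs and from 51.3, 63.5 and 81.7 to 4.86 and 9.95 in DETCs. Cd74, the invariant chain, changed by -1.85 and -1.41. Outside these, the chemokine receptor gene Ccr4 fell from 236, 159.5 and 143 to 121, 99.8 and 114 in KCs and from 553, 507 and 443 to 265 and 217 in DETCs, and Pde6d, a carrier of prenylated proteins, changed by -0.85 and -0.73. Adh7, an alcohol dehydrogenase that acts on retinol, changed by -0.92 and -0.79, Ackr4, a scavenger receptor for chemokines, by -0.75 and -0.61, and Fam180a by -1.22 and -1.82. For Adh7, Ackr4 and Fam180a the keratinocyte share came to 122%, 99.1% and 93.0% of the DETC value. Ptpn6, the phosphatase SHP1 and named after its values were seen, fell from 5477, 4710 and 4845 to 2995 and 2855 in DETCs and by 0.49 on the log2 scale in KCs.

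WT levels enter the difference itself and the number of reads bears on what can be called, so the levels of the differing genes are given as a description. WT DETCs held more than WT KCs in 80 of the 89 genes more upward in DETCs (89.9%) and in 22 of the 26 more upward in KCs (84.6%), against 52.7% of all tested genes. In genes higher in both it was 117 of 272 (43.0%). The median normalized count over all libraries was 1810 and 1346 in the differing sets and 265 over all tested genes. This does not hold for the few genes with trace reads in KCs. It was 2040 in genes higher in both and 487 in genes lower in both, so a high level was not particular to the differing genes. All but 3 of the 115 were protein-coding, as were 267 of the 272 genes higher in both. The median exonic length of the differing genes was 5195 bases (more upward in DETCs) and 6447 bases (more upward in KCs). It was 5678 in genes higher in both, 3530 in genes lower in both and 4136 over all tested genes. The median GC content of the longest transcripts of the differing genes was 49.7% and 50.8%, against 49.6% over all tested genes. The differing genes lay on 18 and 12 chromosomes. Next to each other on chromosome 2 lay Taf4 (179912152 to 179976646), Lsm14b (180024987 to 180035465) and Ss18l1 (180042509 to 180070201, GRCm38), all of them higher in LC-/- DETCs with differences of 0.53, 0.80 and 0.95. Ss18l1, a subunit of neuronal chromatin remodelling complexes, went from 3140, 3293 and 3098 to 6964 and 6694 in DETCs. Sphk2 and Sult2b1, which sulphates cholesterol, lay 11981 bases apart on chromosome 7 (45709467 to 45718002 and 45729983 to 45784669). Both rose in DETCs, and Sult2b1 went from 538, 584 and 605 to 1286 and 1327. These 4 genes besides Sphk2 were named after their values were seen.

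Short motifs in the 250 bases before the gene start were counted in the sets on both strands. Among the 214 genes higher in both that had a promoter in the table, the E-box CACGTG was found for 36 (16.8%, against 9.81% of tested genes), the antioxidant response element TGACNNNGC for 45 (21% against 14%) and the cyclic AMP response element TGACGTCA for 13 (6.07% against 3.04%). The last 2 motifs share their first letters and can overlap. Among the 75 genes more upward in DETCs the shares were 10.7%, 8% and 5.33%. AP-1 motifs were found for 2 of these 75 (2.67%) and for 2 of 21 genes more upward in KCs, against 5.75% of tested genes, and CCAAT boxes for 29 (38.7%) and 5 (23.8%), against 40.2%. The TATA box TATAAA was found for 10 (13.3%) and 2 (9.52%), against 8.11%. A match of this kind is a description of letters.

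For the genes on which the study's own account centres, none of the differences passed the threshold. Il17rb, the IL-25 receptor, had a difference of -1.41 (95% interval -2.12 to -0.71, adjusted p = 0.0748). Il17a had -0.96 (adjusted p = 0.414) and Il17f -1.39 (0.347), with 0 reads of Il17a in every KC library and 1 read of Il17f in 1 of them. Tslp had a difference of 1.17 (interval 0.24 to 2.10, adjusted p = 0.317) and was called higher in both populations. The paper reports it as upregulated in KCs and only as a trend in DETCs. The keratinocyte share of Tslp was above what the DETC libraries held on average, and the source of its DETC counts was not tested. Trav16, a T cell receptor variable segment, went from 195, 279 and 175 to 711 and 676 in DETCs with 0 reads in every KC library (difference 1.70, adjusted p = 0.0724). Trav13-4-dv7 had 1.32 (0.360), Trdv4 -1.46 (0.657) and Tcrg-V5 -0.93 (0.423). H2-Eb1 had -1.82 (0.167), Cyp17a1, a steroid hydroxylase, -0.05 (0.990), Sox13 -0.66 (0.504), Blk -0.51 (0.837) and Il7r -1.26 (0.441). Reads of similar receptor segments can be split between them by counting, so the values of Trav16, Trav13-4-dv7, Trdv4 and Tcrg-V5 are uncertain.

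The number of differing genes depended on single libraries. The number called was 32 without LC-/- DETC library L2 and 138 without L3, which left 1 LC-/- DETC library each time. It was 54 without LC-/- KC library L1, 57, 50 and 61 without WT KC libraries W1, W2 and W3, and 75 and 65 without WT DETC libraries W2 and W3. Called in all 11 of these fits were 23 of the 89 genes more upward in DETCs and 2 of the 26 more upward in KCs. The number higher in both was 57 without L2 of the LC-/- DETCs, 115 and 124 without L1 and L3 of the LC-/- KCs, 90, 90 and 179 without W1, W2 and W3 of the WT KCs and 177 without W2 of the WT DETCs. Lower in both were 11 and 15 genes without L1 and L3 of the LC-/- KCs, 8, 10 and 13 without W1, W2 and W3 of the WT KCs and 16, 15 and 10 without W1, W2 and W3 of the WT DETCs.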

How the data were processed

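PolyA RNA of sorted KCs and DETCs was sequenced in 11 libraries (75-base paired-end reads). Per the methods, the authors removed adapters and low-quality bases with cutadapt, mapped to GRCm38 by hisat2, obtained gene counts by featureCounts and scaled each library by its DESeq2 size factor. The deposited values are thus scaled counts (a signal, not log-transformed) for 52550 genes, with no filter. Groups were taken from the labels, which do not state what a replicate was, so p-values measure the spread between these samples. The paper's caption to its principal component plot gives each dot as a separate animal.

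Division by the smallest step of a library gave back its reads, and 100% of values were whole to within 0.01 reads. Depth is given with the results. Genes with a CPM above 1 in at least 2 libraries (14419) were kept. Log2 of the normalized count plus 1 was fitted with 4 group means in limma 3.58.1 (R 4.3.3; eBayes with trend), and both changes and their difference were tested with Benjamini-Hochberg adjustment. Gene positions came from GENCODE mouse release 21 (GRCm38; 14403 tested genes matched) and promoters from RefSeq (GRCm38.p6), matched by symbol. Scripts were tested on simulated counts.

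Alternatives were pseudocounts of 0.5 and 8, no filter, a minimum mean of 10, size factors within populations, quantile and TMM scaling, no trend, edgeR 4.0.16 and DESeq2 1.42.0 on recovered reads, the number in the labels as a replicate block, subtraction of the keratinocyte share and omission of each library. The members, lists and tests were chosen with earlier results of these data known. Named genes were Foxo1, Glul and Tnf, the 10 largest differences per direction at a mean of at least 10, genes called in opposite directions, the 8 largest shared changes per direction at that mean (genes overlapping another shared gene left out), differing list members and genes of the paper's text; other genes, list members that did not differ included, were named after their values were seen. A few of the genes so chosen are not reported here.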

Additional observations from a re-analysis of the deposited data

Results flagged for a closer look

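A test of the difference between the populations singled out 115 genes and, among them, the genes that follow, each with its log2 difference (LC-/- minus WT in DETCs, less the same in KCs). Foxo1 (1.18), Foxo4 (0.74), Lats2 (1.21), Vgll4 (0.59), Sphk2 (1.24), Neto2 (1.82), Zkscan5 (1.28), Rrm1 (0.98), Nr4a3 (1.0) and Fosl2 (0.92) were called higher in DETCs and not called in KCs. Glul (1.41), Tnf (0.88), Slc16a3 (1.08), Bcl11b (0.97), Herpud1 (0.88), Klhl42 (1.27), Hist3h2a (1.47) and Socs3 (0.83) were called lower in KCs and not called in DETCs. So were Prkcb (2.90), Tnfaip2 (2.71), Lsp1 (2.62) and Ctss (2.01), which had at most 16 reads in any KC library.

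Axin2 (1.01), Plpp3 (0.85), Pja1 (0.68), Arl4c (0.89), Rap2a (1.04), Hs3st3b1 (1.17) and Ptpn11 (-0.68) were called in both populations in opposite directions. Capn2 (-1.09), Rrad (-1.06), Rab11fip1 (-0.94), Piezo1 (-0.92), Ubash3b (-0.89), Gpd2 (-0.83) and Atf6 (-0.56) were called higher in KCs only, as were Icam2 (-2.44), Cd3g (-2.01) and Traf3ip3 (-1.72) with at most 9 reads in any KC library. Cspg4 (-0.84) was called lower in DETCs only. No group held enough libraries for a search for outlying samples.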

How the results depend on the processing

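With 115 genes differing (89 more upward in DETCs), 272 higher and 26 lower in both, the counts in the same order were 310, 233, 443 and 42 with DESeq2, 327, 141, 73 and 11 with the keratinocyte share subtracted, and 22, 19, 73 and 14 without the mean-variance trend. Without a filter 84 differed, 160 were higher and 14 lower in both. Quantile scaling gave 118 differing genes (59.3% more upward in DETCs, against 77.4%), 131 higher and 56 lower in both. TMM scaling and edgeR on recovered reads gave 109 and 129 differing genes and 41 and 43 lower in both. Over the omissions of 1 library the counts ran from 32 to 138 (differing), 25 to 117 (more upward in DETCs), 57 to 350 (higher in both) and 8 to 29 (lower in both). With the keratinocyte share subtracted, the smaller of the 2 changes reversed for Gm18445 (-0.58), Hs3st1 (-0.18), Slc1a1 (-0.84), Sgms2 (-0.25), Oaf (-1.34) and Adh7 (0.92). The cause was not tested, and subtraction was not allowed to give negative values. With the label number as a fixed replicate block, 18 genes differed (17 more upward in DETCs, 17 of them among the 115), with same-way genes not computed. KC library L1 has no DETC library of its number, so it added nothing to the difference in that fit. Leaving out L1 alone gave 54 differing genes. With a random block 132 genes differed. Deviations from the group means correlated by -0.0586 to 0.156 between same-numbered libraries, with W3, L2 and L3 closest to their own number. The deviations of the 2 LC-/- DETC libraries are mirror images, so this cannot decide whether the numbers mark pairs. Only 2 LC-/- DETC libraries limit the precision.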
